A study of Homo sapiens with 6 samples.

Results

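The genes IFI6, IFI27, IFI35, IFI44, IFI44L, IFITM1, IFITM2, IFITM3 and EPSTI1 are interferon-inducible genes whose transcripts were followed in a human colon cancer cell line given a cocoa extract. They were selected by symbol, as the genes of these names carried by array probe sets with exactly 1 gene symbol, which gave 9 of the 19775 genes measured and 11 probe sets. They were picked with results of this same comparison already known, so their differences between cocoa and control are given as a description, with standard errors and without p-values.

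Interferons are secreted proteins that bind receptors on the cell surface and activate Janus kinases, which phosphorylate STAT transcription factors. STAT proteins joined with IRF9 enter the nucleus and bind a short promoter motif, the interferon-stimulated response element, and genes with this element rise within hours. The IFITM proteins are small membrane proteins that hinder the fusion of enveloped viruses with cell membranes, IFITM1 mostly at the cell surface and IFITM2 and IFITM3 mostly in endosomes. IFI6 and IFI27 are small hydrophobic proteins of inner membranes such as those of the endoplasmic reticulum and mitochondria. IFI44 and IFI44L are related cytoplasmic proteins, IFI35 is a partner of the protein NMI, and EPSTI1 was first described in epithelial cells in contact with stroma, so not all of the genes encode membrane proteins.

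HT29, an established line from a colorectal adenocarcinoma, was seeded at 300000 cells, grown in F12 medium with 7% serum, and exposed on the following day for 24 h. In the treated group 3 cultures were given 500 µg of polyphenolic cocoa extract, in a volume that is not stated, and the 3 control cultures, titled untreated, received saline according to the treatment protocol. Each culture was read on 1 array, so each group has n = 3 and the number of arrays limits the precision. Nothing in the labels says that replicate cultures were independent, so tests measure only the spread between these cultures, which may be technical.

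Each probe set was deposited with its median over the 6 arrays subtracted on the log2 scale. The values therefore show differences between arrays and no level, so that the 9 genes cannot be ranked by abundance, and the presence of colon or other cell type markers cannot be checked. None of 10 colon epithelium markers passed the threshold below (differences −0.083 to 0.23), nor did any of 10 markers of fibroblasts and endothelium (−0.14 to 0.069), and 1 of 8 measured leukocyte markers did, CD14, which was higher by 0.75 (SE 0.11, limma adjusted p = 0.00321). In a culture, more RNA per cell and a larger share of cells with the transcript cannot be told apart. Because of the centring, a probe set with every cocoa array above every control array has its highest control and lowest cocoa value at equal distance from 0. This need not hold for a gene that is the mean of several probe sets, as are IFI44 and EPSTI1.

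All 9 genes were higher with cocoa, by 0.68 to 3.81 on the log2 scale (1.6-fold to 14.1-fold), with a median difference of 1.26. In each of the 9 every cocoa array lay above every control array, a pattern found in 15.4% of all genes. All 9 were among the genes past the threshold and higher in the fit over all genes (limma, Benjamini-Hochberg adjusted p under 0.05), against a background of 7.36% of genes, and nothing is read from this count because the genes were chosen on this contrast. Of all genes 6.12% passed and were lower, and 32.5% had groups that did not overlap in one direction or the other. All 11 probe sets were past the threshold and higher in the fit over probe sets, against 4.68% of all probe sets. The background was 4.3% without control array 2 and 3.98% with the 18S ribosomal signal as a covariate, and all 9 stayed past the threshold in both fits. For the same reason nothing is read from these counts or from that of the probe sets. The median difference over all 19775 genes was −0.012.

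**Figure D1:**
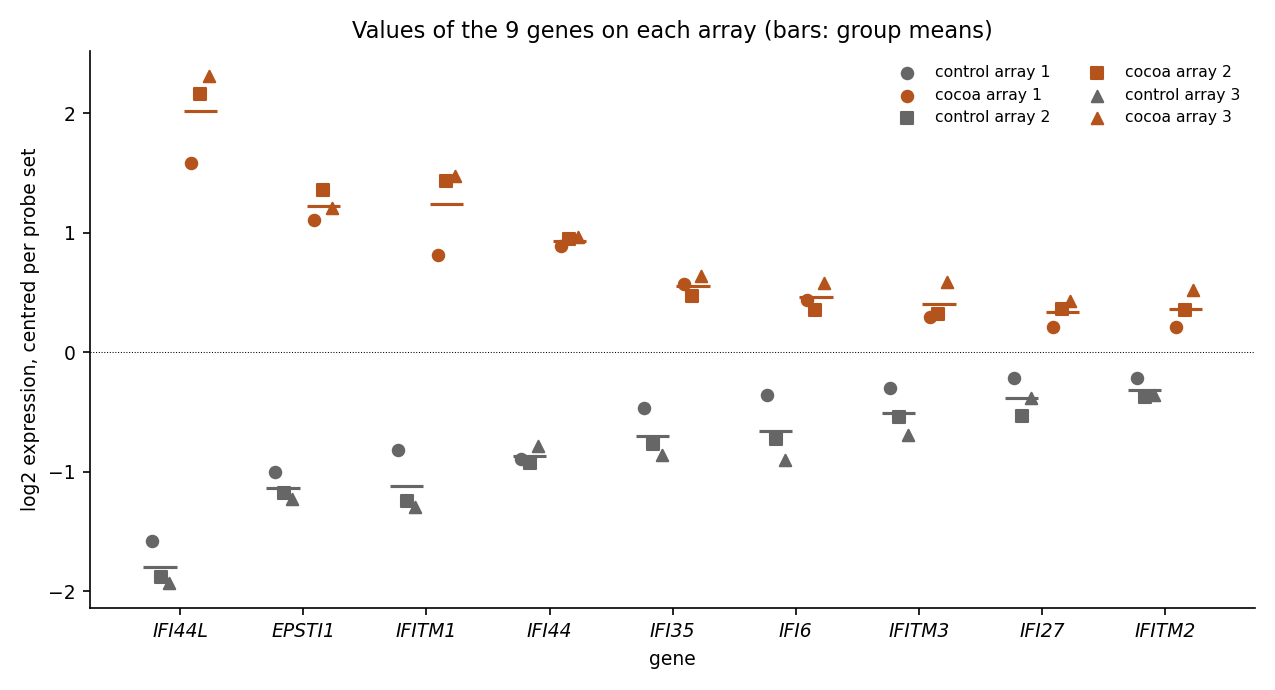
Log2 expression centred per probe set (y axis) for the 9 genes (x axis, ordered by difference), with 1 point per array, grey for control and orange for cocoa, symbols for the replicate number and bars for group means. Every orange point lies above every grey point of its gene, from IFI44L, with a gap of 3.16 between the groups, to IFITM2, with a gap of 0.42.

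IFI44L had the largest difference of the 9 and the second largest increase among all genes. Its values were −1.58, −1.88 and −1.93 in control arrays 1 to 3 and 1.58, 2.16 and 2.31 in cocoa arrays 1 to 3, a difference of 3.81 (SE 0.17, 14.1-fold). Cocoa array 1 was the lowest of its group and the other two cocoa arrays lay close together. Its relative IFI44, the next gene on chromosome 1, read −0.90, −0.93 and −0.79 in the controls and 0.89, 0.94 and 0.97 with cocoa, a difference of 1.80 (SE 0.067, 3.49-fold). As the mean of 2 probe sets, IFI44 had the smallest SD of the 9 genes in both groups (0.074 in controls and 0.038 with cocoa, n = 3 each). Taken singly, the probe sets of IFI44 had SDs of 0.12 and 0.060 in controls and 0.11 and 0.17 with cocoa. The small SD of the mean is therefore not comparable with that of genes read by 1 probe set. Its 2 probe sets differed by 1.82 (SE 0.093) and 1.79 (SE 0.099), although cocoa array 1 was the highest cocoa array in the first (1.01) and the lowest in the second (0.78). RefSeq promoter sequence (GRCh38.p14, plus strand for both genes) is shown for the core motif of the interferon-stimulated response element, which is GAAA, then any 2 bases, then GAAA. Capitals mark matches on either strand, with up to 12 bases on each side and nothing past the start of the gene. The IFI44L stretch is chr1:78620272-78620396, from 176 to 52 bases before the start, and that of IFI44 is chr1:78649759-78649788, which ends at the last base before the start.
IFI44L: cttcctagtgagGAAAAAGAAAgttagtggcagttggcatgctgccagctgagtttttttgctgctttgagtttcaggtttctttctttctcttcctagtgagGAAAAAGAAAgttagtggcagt
IFI44: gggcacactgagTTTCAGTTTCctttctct
IFI44L held the same match, GAAAAAGAAA, at 164 and at 73 bases before the start, inside a stretch of 85 bases that occurs a second time 91 bases further on. IFI44 held 1 match, which reads GAAACTGAAA on the other strand, 18 bases before the start. Both promoters share agttggcatgctg, 13 bases that begin 145 bases before the start of IFI44L and 54 bases before that of IFI44.

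The IFITM genes lie next to each other on chromosome 11 in the order IFITM2, IFITM1 and IFITM3, and the middle one differed most. IFITM1 read −0.82, −1.24 and −1.29 in the controls and 0.82, 1.43 and 1.47 with cocoa, a difference of 2.36 (SE 0.18, 5.13-fold). The array with the highest control value and the one with the lowest cocoa value were both number 1 of their group, and these 2 arrays set the gap of 1.63 between the groups. IFITM3 read −0.30, −0.54 and −0.69 in the controls and 0.30, 0.32 and 0.59 with cocoa, a difference of 0.91 (SE 0.11, 1.88-fold). IFITM2 read −0.21, −0.37 and −0.36 in the controls and 0.21, 0.35 and 0.52 with cocoa, a difference of 0.68 (SE 0.091, 1.6-fold), the smallest of the 9. The difference of IFITM1 exceeded that of IFITM3 by 1.45 and that of IFITM2 by 1.68. Taken array by array, IFITM1 minus IFITM2 ran from −0.93 to −0.61 in the controls and from 0.61 to 1.08 with cocoa, without overlap. The difference of IFITM3 exceeded that of IFITM2 by 0.23, and IFITM2 minus IFITM3 was 0.086 to 0.33 in the controls and −0.086 to 0.031 with cocoa, also without overlap.

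The 3 IFITM genes are close copies, and the array reads them with probe sets that may also match other transcripts, as their suffixes say: _s_at for IFITM1 and _x_at for IFITM2 and IFITM3. How far these probe sets read each other's transcripts was not tested. A further _x_at probe set carries the symbols of IFITM2 and IFITM1 and is therefore in no gene value. It read −0.79, −1.37 and −1.30 in the controls and 0.79, 1.11 and 1.48 with cocoa, a difference of 2.28 (SE 0.20). Over the 6 arrays its root mean square distance on the log2 scale was 0.14 to IFITM1, 0.70 to IFITM3 and 0.82 to IFITM2. Without probe sets of these 2 suffixes the IFITM genes and IFI35 are not measured, and the other 5 genes had differences from 0.71 to 3.81. All 5 were past the threshold and higher, against 6.4% of all genes in that fit. Nothing is read from this count, because the genes were chosen on this contrast.

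**Figure D2:**
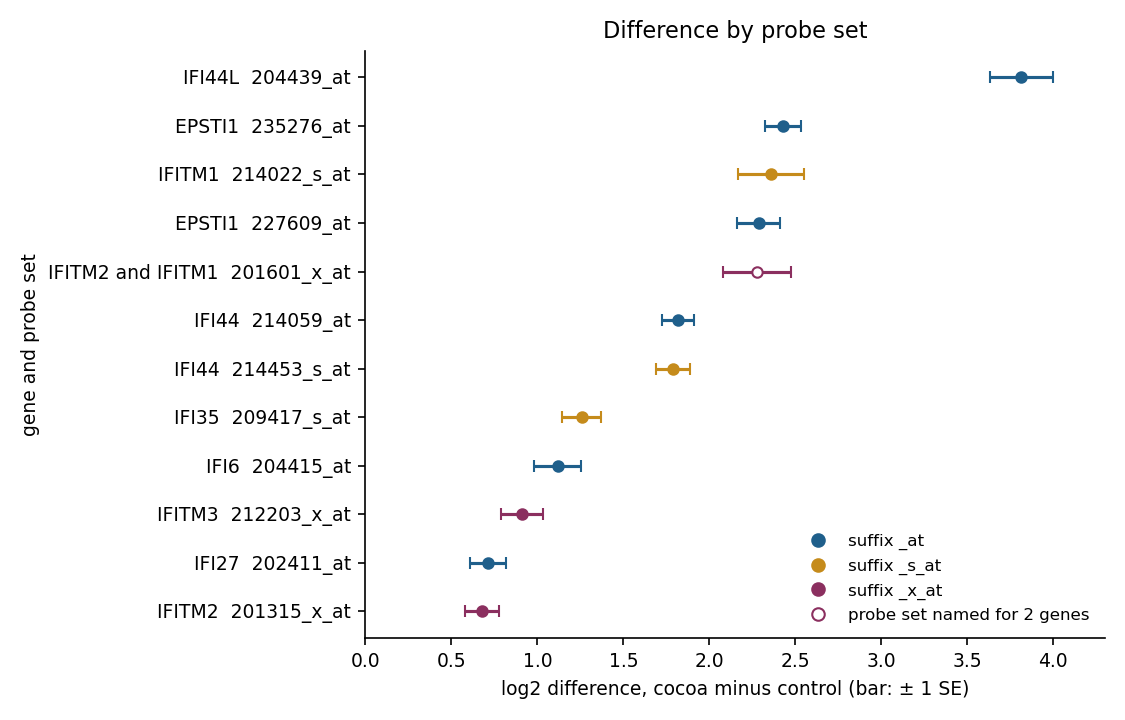
Log2 difference, cocoa minus control (x axis, bars ± 1 SE, n = 3 arrays per group), for the 11 probe sets of the 9 genes and the probe set named for both IFITM1 and IFITM2 (open circle), coloured by suffix. The shared probe set (2.28) sits beside that of IFITM1 (2.36) and far from that of IFITM2 (0.68), and the probe sets of IFI44 (1.79 and 1.82) and of EPSTI1 (2.29 and 2.43) lie together.

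Promoter sequence of IFITM1 (chr11:313988-314021, plus strand) and IFITM3 (chr11:320874-320924, minus strand) is shown for the same motif, since these copies differed in size of response.
IFITM1: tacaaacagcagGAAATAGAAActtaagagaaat
IFITM3: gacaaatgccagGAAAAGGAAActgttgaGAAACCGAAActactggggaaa
IFITM1 held 1 match within the window, 40 bases before the start, and another that began 6 bases before the start and ran into the transcript. IFITM3 held 2, at 52 and 35 bases before the start. The longest stretch common to both promoters was taaagtaatttgatcctca, 19 bases that lie upstream of the matches in both genes. IFITM2 has no entry in the table used here.

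IFI6 and IFI27, the small hydrophobic proteins, had moderate differences. IFI6, which protects the endoplasmic reticulum from remodelling by some viruses, read −0.36, −0.72 and −0.90 in the controls and 0.44, 0.36 and 0.58 with cocoa, a difference of 1.12 (SE 0.13, 2.17-fold). The controls of IFI6 had the largest SD of the 9 genes (0.28, n = 3), with control array 1 apart from the other two. IFI27, a mitochondrial and nuclear membrane protein, read −0.21, −0.54 and −0.39 in the controls and 0.21, 0.37 and 0.43 with cocoa, a difference of 0.71 (SE 0.095, 1.64-fold). Their promoters (IFI6 chr1:27672264-27672360, minus strand, and IFI27 chr14:94110616-94110662, plus strand) are shown because each held more than 1 match.
IFI6: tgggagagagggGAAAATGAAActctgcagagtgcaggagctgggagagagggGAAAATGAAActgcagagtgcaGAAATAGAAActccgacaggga
IFI27: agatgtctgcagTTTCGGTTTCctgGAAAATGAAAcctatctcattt
IFI6 held 3 matches, at 156, 115 and 93 bases before the start, and the first pair lies in a stretch of 29 bases that is repeated 41 bases apart. IFI27 held 2 that face each other on opposite strands, at 108 and 95 bases before the start. Overlapping both is TTCCTGGAA, a match to TTCNNNGAA, the palindrome that STAT dimers are known to bind. IFI27, with 2 matches, had a smaller difference than IFI44 with 1. Whether the number of matches bears on the size of the difference was not tested.

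IFI35 read −0.47, −0.77 and −0.86 in the controls and 0.57, 0.47 and 0.64 with cocoa, a difference of 1.26 (SE 0.10, 2.39-fold), the median of the 9. It was 1 of 2 genes, with IFI6, in which cocoa array 2 was the lowest of its group. EPSTI1, the mean of 2 probe sets, read −1.01, −1.18 and −1.22 in the controls and 1.11, 1.36 and 1.20 with cocoa, a difference of 2.36 (SE 0.087, 5.13-fold). Its probe sets differed by 2.29 (SE 0.13) and 2.43 (SE 0.10), and disagreed most in cocoa array 1, by 0.36. EPSTI1 and IFITM1 thus had nearly the same difference, while the SD of the cocoa arrays was 0.13 for EPSTI1 and 0.37 for IFITM1 (n = 3 each). Taken singly, the 2 probe sets of EPSTI1 had cocoa SDs of 0.22 and 0.17, and IFITM1 has 1 probe set. The promoter of EPSTI1 (chr13:42992270-42992303, minus strand) has capitals for the same core motif, and that of IFI35 (chr17:43006750-43006782, plus strand), the member with a promoter entry and no such match, has them for TTCNNNGAA.
EPSTI1: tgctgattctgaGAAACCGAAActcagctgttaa
IFI35: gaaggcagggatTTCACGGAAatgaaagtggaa
The match of EPSTI1 lies 50 bases before the start within tgagaaaccgaaact, 15 bases that IFITM3 holds too, 38 bases before its own start. The palindrome match TTCTGAGAA occurred in EPSTI1 and in IFITM1, at 56 and 12 bases before the start.

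**Figure D3:**
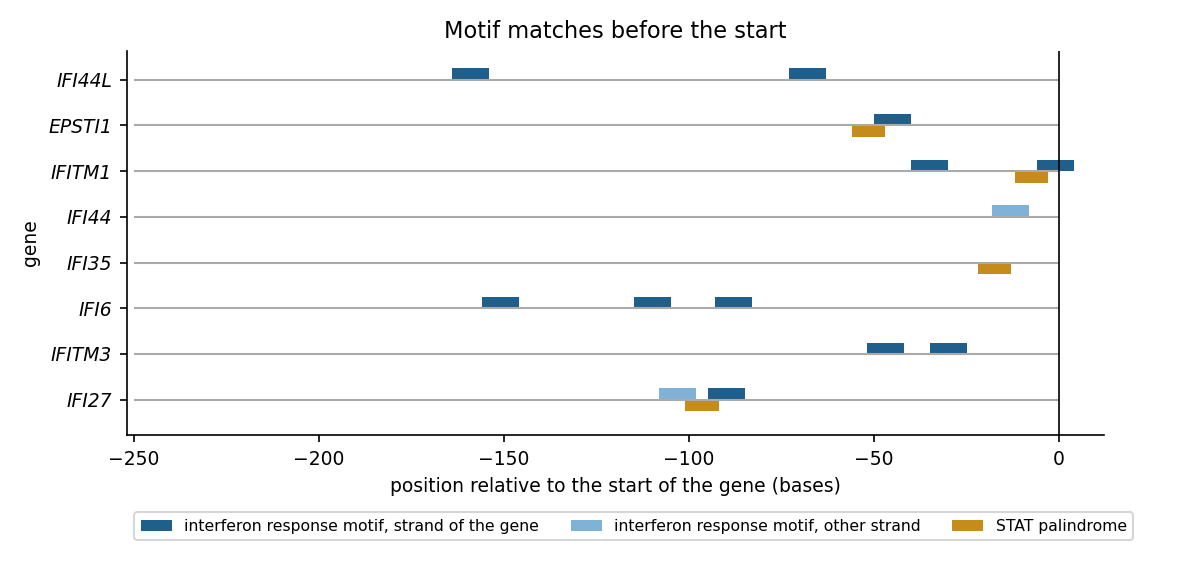
Position in bases relative to the start of the gene (x axis) of matches in the 8 members with a promoter entry (first listed start of each), blue for the interferon response motif by strand and ochre for the STAT palindrome. All 8 rows hold a match of one kind, between 164 bases before the start in IFI44L and the start itself in IFITM1.

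Order of size was compared between neighbours by subtracting one gene from the next on each array. IFI44L lay above EPSTI1 by 1.45 with no overlap of the groups. EPSTI1 and IFITM1 differed by 0.0014, and IFITM1 exceeded IFI44 by 0.55, with overlap of cocoa and control arrays in both pairs. The steps from IFI44 to IFI35 (0.55), from IFI35 to IFI6 (0.14) and from IFI6 to IFITM3 (0.21) were free of overlap. The genes were sorted by these same differences, so the direction of each step was fixed in advance. Among all genes taken singly, 32.5% had groups that did not overlap, and the share among other pairs of genes was not computed. IFITM3 against IFI27 (0.20) and IFI27 against IFITM2 (0.036) overlapped. The order of these genes, and that of EPSTI1, IFITM1 and IFI44, is thus not set beyond the spread of the arrays.

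The arrays had a recurring order within groups. Control array 1 was the highest control in 8 of the 9 genes, with IFI44 the exception, while it was the highest control in 45.7% of the 1447 other genes that were past the threshold and higher. Cocoa array 3 was the highest cocoa array in 8 of 9, with EPSTI1 the exception, against 22.6% of those other genes. Cocoa array 1 was the lowest in 7 of 9, against 35.2%. The mean of the 9 genes was −0.65, −0.91 and −0.94 in control arrays 1 to 3 and 0.68, 0.86 and 0.97 in cocoa arrays 1 to 3. The 18S ribosomal RNA control signal was −1.12 in control array 1, 0.51 in control array 2 and −0.53 in control array 3. With cocoa it was −0.51, 3.31 and 1.40 in arrays 1 to 3, so cocoa arrays 2 and 3 stood above every control and cocoa array 1 lay within their range. The 5′ minus 3′ signal of the actin and GAPDH control probe sets was 0.028, 0.033 and 0.0090 in control arrays 1 to 3. In cocoa arrays 1 to 3 it was 0.032, −0.26 and −0.052, so cocoa arrays 2 and 3 lay below every control. The part of either signal in the differences of the 9 genes was not tested. Cocoa array 1 alone exceeded the control mean by 3.38 in IFI44L, 1.93 in IFITM1, 1.76 in IFI44, 1.27 in IFI35 and 0.53 in IFITM2. That is 77.7% to 101% of the difference over all cocoa arrays, with 0.59 in IFI27. A fit of this array alone takes it to vary like the controls, so only sizes are given here. With the 18S covariate the differences of the 9 genes ran from 0.65 to 3.63, and with the 5′ minus 3′ covariate from 0.65 to 3.65. All 9 stayed past the threshold and higher with the 18S covariate, against 3.98% of all genes in that fit. The 9 were chosen on this contrast, so nothing is read from that count.

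Genes beside the 9 on the chromosomes had smaller differences. The neighbours were the 2 nearest measured protein-coding genes on each side of each gene or cluster, 24 in all, and their differences ran from −0.22 to 0.36 with a median of 0.073. Of the 24, 2 rose, 0 fell and 22 did not pass, and over all genes 13.5% passed in either direction. IFI27L2, a relative of IFI27 directly beside it, rose by 0.36 (SE 0.077, limma adjusted p = 0.0148). It did not pass without control array 2 (adjusted p = 0.0727, with 0.0166 to 0.0727 in the fits without 1 array). STX12, a syntaxin of endosomal fusion and the second gene after IFI6, rose by 0.29 (SE 0.062, adjusted p = 0.0164), and its call was lost without control array 2 and without control array 3 (0.0323 to 0.0692 without 1 array). Its adjusted p was 0.078 with the 18S covariate and 0.0641 with the covariate of 5′ minus 3′ signal. IFI27L1, on the other side of IFI27, had a difference of 0.20 (SE 0.076, adjusted p = 0.121). Around the IFITM cluster PGGHG, a glycosylation-related hydrolase of collagen, read 0.17 (SE 0.082, adjusted p = 0.219) and B4GALNT4, a glycosyltransferase, read −0.12 (SE 0.11, adjusted p = 0.544). Around IFI44L and IFI44 the receptor genes PTGFR and ADGRL4 read 0.054 (SE 0.095, adjusted p = 0.788) and 0.13 (SE 0.099, adjusted p = 0.448).

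**Figure D4:**
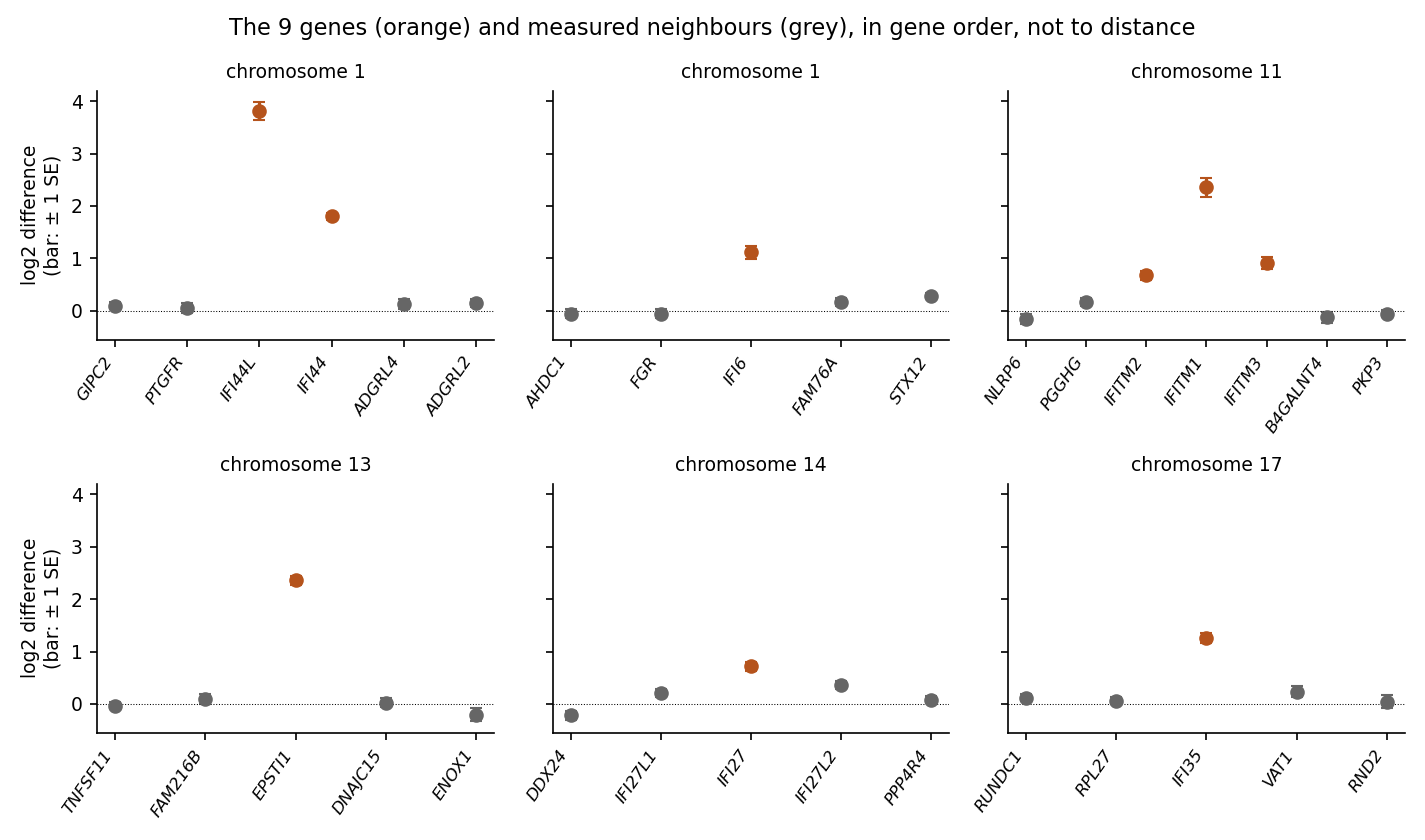
Log2 difference, cocoa minus control (y axis, bars ± 1 SE, n = 3 arrays per group), of the 9 genes in orange and of their measured neighbours in grey, in gene order along the chromosome with equal spacing. The orange points lie at 0.68 or more and the grey points between −0.22 and 0.36.

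The core motif of the response element was counted on both strands in the 250 bases before the start for every gene with a promoter entry, counting a gene once if any of its starts had a match. It was present in 7 of the 8 members with an entry, in 3.71% of all 27305 genes in the promoter table and in 3.35% of the 15376 other genes measured here. None of the 19 neighbours with an entry held it. Among other genes past the threshold it was present in 19.1% of 68 that rose at least 2-fold, in 8.96% of 201 that rose 1.5-fold to 2-fold and in 3.93% of 891 that rose less. These classes include the rising genes of a list of classical antiviral genes, in which 16 of 24 with an entry held the motif. The shares without that list were not computed. It was present in 2.02% of 992 genes that fell and in 3.24% of 13224 that did not pass. The longer form, with a C after the second GAAA, was present in 6 of the 8, the exception besides IFI35 being IFI44L, the gene with the largest difference, and in 0.773% of all genes. TTCNNNGAA was present in 4 of the 8 (EPSTI1, IFITM1, IFI35 and IFI27) and in 8.09% of all genes, with 11.8%, 8.46% and 8.08% in the 3 classes of rising genes. In IFI27 and EPSTI1 the 2 motifs overlap by some bases. A match describes the letters of the sequence and not the binding of a factor.

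**Figure D5:**
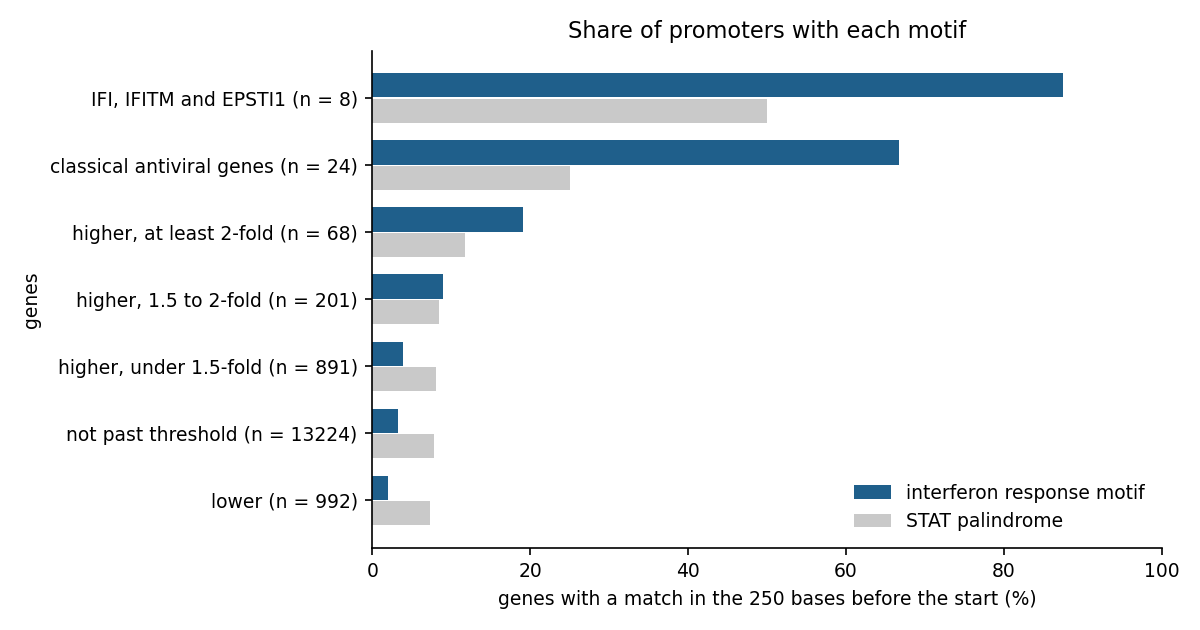
Percent of genes with a match in the 250 bases before the start (x axis) for the interferon response motif (blue) and the STAT palindrome (grey), by group of genes (y axis, with the number that have a promoter entry). The blue share is 87.5% in the IFI, IFITM and EPSTI1 genes and 66.7% in the antiviral list. It falls from 19.1% to 3.93% over the 3 classes of other rising genes, which include the rising genes of that list. The grey share is 50% in the IFI, IFITM and EPSTI1 genes and 25% in the antiviral list, and stays between 7.36% and 11.8% from the 2-fold class downward.

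Other genes of the interferon pathway were taken from lists chosen by function. The lists were drawn up with earlier results of these data known, so their counts and p-values are a description and no independent support. Over all genes 7.36% passed and were higher. Of 30 classical antiviral genes 29 rose, 0 fell and 1 did not pass, with a median of 1.15 beside the 1.26 of the 9 genes and −0.012 of all genes. The largest were TRIM22, an antiviral ubiquitin ligase (3.95, SE 0.16), IFIT1, which binds foreign RNA ends (2.52, SE 0.13), DDX60, a helicase (2.29, SE 0.13), and MX2, an antiviral GTPase (2.27, SE 0.20). Their limma adjusted p ran from 3.39e-06 (TRIM22) to 0.000169 (MX2). The 9 genes thus span a range, 0.68 to 3.81, that lies within that of these 30 genes, 0.10 to 3.95. Of the 30, 24 had a promoter entry and 16 of these held the core motif of the response element. TTCNNNGAA was present in 6 of the 24, against 8.09% of all genes in the promoter table.

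Of 10 measured relatives by name or family 5 rose, 1 fell and 4 did not pass (median 0.27). IFI16, a nuclear DNA sensor, rose by 1.75 (SE 0.074, limma adjusted p = 4.18e-06), and IFIH1, a sensor of double-stranded RNA, by 0.88 (SE 0.088, adjusted p = 0.000408). IFITM10, a distant member of the IFITM family, rose by 0.56 (SE 0.079, adjusted p = 0.00206). NMI, the binding partner of IFI35, rose by 0.33 (SE 0.074, adjusted p = 0.0181), against 1.26 for IFI35. The call of NMI was lost in 3 of the fits without 1 array (control array 2, cocoa array 2 or cocoa array 3, with adjusted p 0.0195 to 0.0875 over the 6), with the 18S covariate (0.103), with the 5′ minus 3′ covariate (0.094) and with cocoa array 1 alone (0.191). IFRD2, a regulator that shares the word interferon in its name, fell by 0.70 (SE 0.094, adjusted p = 0.00174).

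Interferons, their receptors and the factors downstream were counted in the same way. Of 18 measured interferon genes 1 rose, IFNL2, a type III interferon (0.37, SE 0.10, limma adjusted p = 0.0403), and 17 did not pass. The call of IFNL2 was lost in 5 of the 6 fits without 1 array, all but the one without cocoa array 1 (0.0178 to 0.122), and with the 18S covariate (0.237). IFNB1, the interferon beta gene, had a difference of −0.14 (SE 0.13, adjusted p = 0.558). Of 15 measured receptor and JAK-STAT genes 3 rose and 12 did not pass (median 0.077). IRF9, the DNA-binding partner of the STAT proteins, rose by 1.21 (SE 0.096, adjusted p = 0.000115). The type III receptor chains IL10RB (0.35, SE 0.081, adjusted p = 0.0218) and IFNLR1 (0.30, SE 0.075, adjusted p = 0.0278) each lost their call in 4 of the 6 fits without 1 array (up to 0.0979 and 0.123), the one without control array 1, 2 or cocoa array 2 in both, control array 3 in the first and cocoa array 3 in the second. With the 18S covariate they were at 0.12 and 0.109. Of 8 measured interferon regulatory factors 3 rose, IRF9, IRF7 (0.92, SE 0.11, adjusted p = 0.000903) and IRF1 (0.52, SE 0.079, adjusted p = 0.00314), and 5 did not pass.

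For each of the 9 genes the other gene with the closest profile was found by the root mean square distance of its 6 array values on the log2 scale. IFI44L was closest to TRIM22 (0.14), EPSTI1 to MX1, an antiviral GTPase (0.10), and IFITM1 to UBE2L6, the conjugating enzyme of ISG15 (0.10). IFI44 was closest to IFI16 (0.082), and both IFI35 (0.056) and IFI6 (0.10) to IRF9. IFITM3 was closest to TGFB1I1, a focal adhesion protein (0.057), IFI27 to FGF19, an intestinal growth factor (0.065), and IFITM2 to SLC16A14, a transporter (0.041). These last 3 genes and UBE2L6 are in none of the lists used here. Since all 9 profiles are set mostly by the step between groups, the nearest gene is mainly one with a difference of like size.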

How the data were processed

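RNA from 6 cultures of HT29 was measured on Affymetrix U133 Plus 2.0 arrays. Per the submitters' processing notes the authors used RMA, a method that includes quantile normalisation, which makes the arrays alike in distribution. The series text names GeneSpring GX, without a version. In the deposited log2 values, 54675 probe sets ran from −2.42 to 4.02, with a median of 0 in each, so the authors' values had been centred. Base 2 follows from RMA, since the table does not name its base.

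Of 54613 probe sets without the 62 control probe sets, 41091 carried 1 symbol in the platform annotation. Probe sets of a gene were averaged. Cocoa minus control was fitted over all genes, and separately over all probe sets, with limma 3.58.1 in R 4.3.3 (lmFit, eBayes), and p was adjusted by Benjamini-Hochberg, with 0.05 as threshold; SEs are moderated. The steps were tested on simulated data. The genes and lists were chosen with earlier results of these data known. Named beside the 9 genes are up to 4 called genes of each list, any gene of lists with at most 12 measured genes, the neighbours, and the nearest profile of each gene. The other list genes given, among them IFNB1, IL10RB, IFNLR1, CIITA, IDO1 and CD14, were chosen after their values were seen.

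Promoters are RefSeq sequences of GRCh38.p14 (35116 starts of 27305 genes, 300 bases each), of which the 250 bases before the start were searched. RefSeq gene order of the same assembly gave neighbours. Identity of the proteins was not computed, as no protein sequences were used here. Alternative fits used a replicate block, a robust prior, array weights, quantile normalisation, centring on array medians, the median of probe sets, removal of _s_at and _x_at probe sets, covariates from the 18S and the 5′ minus 3′ actin and GAPDH control probe sets, each array left out, and, chosen after seeing the data, cocoa array 1 alone against the controls. Figures were made with matplotlib 3.10.9 in Python 3.11.15.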

Additional observations from a re-analysis of the deposited data

Results flagged for a closer look

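The 18S ribosomal RNA control probe sets, which enter no gene value, read 3.31 in cocoa array 2 and 1.40 in cocoa array 3, above the highest control array (0.51). With this signal as a covariate the differences of the 9 genes ran from 0.65 to 3.63, against 0.68 to 3.81 without it, and its part in them was not tested. The probe set left out of all gene values because it carries the symbols of both IFITM2 and IFITM1 was higher with cocoa by 2.28 (SE 0.20), with every cocoa array above every control array.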

How the results depend on the processing

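The differences of the 9 genes were recomputed 140 times over 16 alternatives. None changed sign, and 1 lost its call, that of IFI27 with cocoa array 1 alone against the controls (difference 0.59). Without _s_at and _x_at probe sets 5 of the 9 genes are measured and all 5 are called higher, against 6.4% of all genes in that fit. The 9 genes were chosen on this contrast, so nothing is read from their calls in any of the fits. No member value moved by over 1.5 times. Counts over other genes moved more. Of 2666 genes called, 1103 were called with the 18S covariate, 1411 with the 5′ minus 3′ covariate and 845 with cocoa array 1 alone, of which 787, 919 and 657 were higher. Without 1 array the count ran from 1315 (without control array 2) and 1623 (without control array 1) to 2881, that of higher genes from 851 to 1458 and that of probe sets from 1416 to 4602, against 4358. Called neighbours, 2 in all, were 1 with either covariate, 0 with cocoa array 1 alone and 0 to 3 without 1 array. Called receptor and JAK-STAT genes, 3 in all, were 1 with either covariate, 1 with cocoa array 1 alone, 1 with the replicate block and 1 to 4 without 1 array. The count of called interferon genes, 1 in all (IFNL2), was 0 with the 18S covariate, the replicate block, cocoa array 1 alone and without _s_at and _x_at probe sets, and 0 to 1 without 1 array. IFNL2 was also lost with the 5′ minus 3′ covariate (adjusted p = 0.181). Called entry and endosome partners, 2 in all, were 1 with the 18S covariate and with cocoa array 1 alone, and 2 to 4 without 1 array. Deviations of same-numbered arrays had correlations over genes of −0.12, −0.0089 and −0.0031. With 3 centred arrays per group these cannot tell whether the arrays were paired, and the labels name no pairing. With the replicate block 1947 genes and 2078 probe sets were called, and all 9 members, while NMI lost its call. The motif count was 6 with the longer motif in place of 7. The table has no levels, so what signal over background limits cannot be given.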

Other observations

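Of 12 genes of virus entry and of endosomes, among them partners of the IFITM proteins, 1 rose, 1 fell and 10 did not pass, with a median of −0.077, while 13.5% of all genes passed in either direction. LY6E, a membrane-anchored protein of the interferon response that also alters virus entry, rose by 0.53 (SE 0.10, limma adjusted p = 0.0101), with 0.0692 as its adjusted p once 18S was a covariate and 0.0176 to 0.0388 when 1 array was left out. CAV1, caveolin 1 of the plasma membrane, decreased by 1.42 (SE 0.069, adjusted p = 7.72e-06). ZMPSTE24, a protease that is a partner of IFITM proteins in virus restriction, read −0.13 (SE 0.059, adjusted p = 0.203), and ZDHHC20, an acyltransferase that palmitoylates IFITM3, read −0.38 (SE 0.16, adjusted p = 0.153).

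Of 15 genes best known from the response to interferon gamma 4 rose, 0 fell and 11 did not pass, with a median of 0.17. They were PSMB9, a subunit of the immunoproteasome (1.56, SE 0.14), the chemokines CXCL11 (0.94, SE 0.14) and CXCL10 (0.67, SE 0.12), and TAP1, a peptide transporter (0.59, SE 0.11), whose adjusted p was 0.0548 with the 18S covariate. The 11 that did not pass ran from −0.099 in GBP5 (SE 0.068) to 0.47 in GBP1 (SE 0.16, limma adjusted p = 0.0825), both guanylate-binding proteins. Between these, CIITA, the activator of class II genes, read −0.016 (SE 0.080, adjusted p = 0.935), and IDO1, a tryptophan-degrading enzyme, read −0.096 (SE 0.12, adjusted p = 0.70). GBP2 read 0.35 (SE 0.16, adjusted p = 0.194).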
